A study of Mus musculus with 2 samples.

Results

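The mRNAs of 7 mouse genes that act on N6-methyladenosine (m6A) after it has been written were examined for the mark itself. The genes were chosen by function, not by a measured value, although earlier results of these data were known. They are the YTH-domain readers Ythdf1, Ythdf2, Ythdf3, Ythdc1 and Ythdc2, and the erasers Fto and Alkbh5. Every row of the deposited plus tables that carries one of these gene names was taken, whatever its value. This gave 38 positions in 5 of the 7 genes in replicate 1, out of 26441 positions in all, and 65 positions in 6 genes in replicate 2, out of 50099.

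m6A is a methyl group on adenosine that a nuclear writer complex adds to mRNA, mostly within the DRACH context (D is A, G or U, R is A or G, and H is A, C or U). Reader proteins with a YTH domain bind the methylated base. YTHDF1, YTHDF2 and YTHDF3 are closely related cytoplasmic readers, YTHDC1 works in the nucleus on splicing and export, and YTHDC2 is an RNA helicase known for its role in meiosis. FTO and ALKBH5 are iron-dependent dioxygenases that can remove the methyl group.

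Both libraries came from wild-type Rx:GFP retinal organoids at day 6, grown from a mouse stem cell line with a GFP reporter of the eye-field gene Rx (Rax), and exposed to AGN at 0.1 µM for 6 days. Native poly(A) RNA was read by nanopores without copying, with 1 flow cell per library. The 2 libraries carry the same batch label and form 1 group (n = 2) with no second condition, so each fraction is described with its spread over replicates. An exact paired permutation test of 2 replicates cannot go below p = 0.5, and none was used. Nothing in the labels says whether the replicates are separate cultures, so their spread may be technical.

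For each position the tables give a motif of 5 bases, the number of reads covering it (coverage) and the fraction modified, a value from 0 to 1. The denominator of that fraction is not given. Only 21 of the 65 fractions in replicate 2 (32.3%) and 16 of 38 in replicate 1 were whole multiples of 1 over the coverage, within a rounding of 5e-05. These counts include fractions of exactly 0 or 1, which fit any denominator. The number of reads behind a fraction need not be its coverage, and a fraction given over a number of reads below is given with its coverage. No interval was therefore set around a single fraction. Positions are counted from the start of the transcript. The files hold no transcript sequence, so the bases around a position and its place in coding or untranslated sequence were not analysed here. It is not stated if the tables list every position that was examined, so a missing position is not an unmethylated one. The 4 motifs that occur are shown, in DNA letters, because fractions differed by motif in the sites of all genes.

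Motif with A last: GGACA

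Motif with C last: GGACC

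Motifs with T last: GGACT and AGACT

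Of the tissue markers, 6 eye-field genes were listed in replicate 2 and 5 of them had a position of 20 or more reads, up to 261 reads in Lhx2. No marker of pluripotent cells (5 genes), retinal neurons (4 genes) or mesoderm and endoderm (4 genes) was listed in either library. A gene can only be listed from 5 reads at a candidate motif, so an unlisted gene may have been expressed.

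Depth differed between the libraries and set what could be read from each gene. The median coverage of the members' positions was 13.5 reads in replicate 1, with a maximum of 19, and 20 reads in replicate 2, with a maximum of 55. No member position reached 20 reads in replicate 1. In replicate 2, 34 of the members' 65 positions did (52.3%, 95% Wilson interval 40.4 to 64.0), against 32.4% of all listed positions, and these 34 are called sites here. Such intervals cover counting error only, and positions of a transcript share reads. The sites lay in 5 of the 6 listed members, while 48.6% of all listed genes had one. Of the 65 positions of replicate 2, 34 were also listed in replicate 1 (52.3%), against 37.4% of all positions; this set is not the same 34, as 28 positions belong to both.

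Direct RNA reads begin at the poly(A) tail, and in replicate 2 coverage was higher at the last listed position of each gene's deepest transcript than at the first. It went from 20 reads at the first listed position of Ythdf1 to 45 at the last, from 17 to 31 in Ythdf2, from 11 to 35 in Ythdf3, from 29 to 55 in Fto and from 7 to 21 in Alkbh5. The rise was not even, and in Alkbh5 coverage fell from 15 reads at position 1654 to 12 at 5039 before the last position. In replicate 1 Alkbh5 had 5 reads at its first position, 8 at 1654 and 6 at its last. The highest coverage of Fto ranked at percentile 80.6 among all genes of replicate 2, that of Ythdf1 at 76.0, Ythdf3 at 69.9, Ythdf2 at 66.5, Alkbh5 at 54.2 and Ythdc1 at 50.5.

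**Figure D1:**
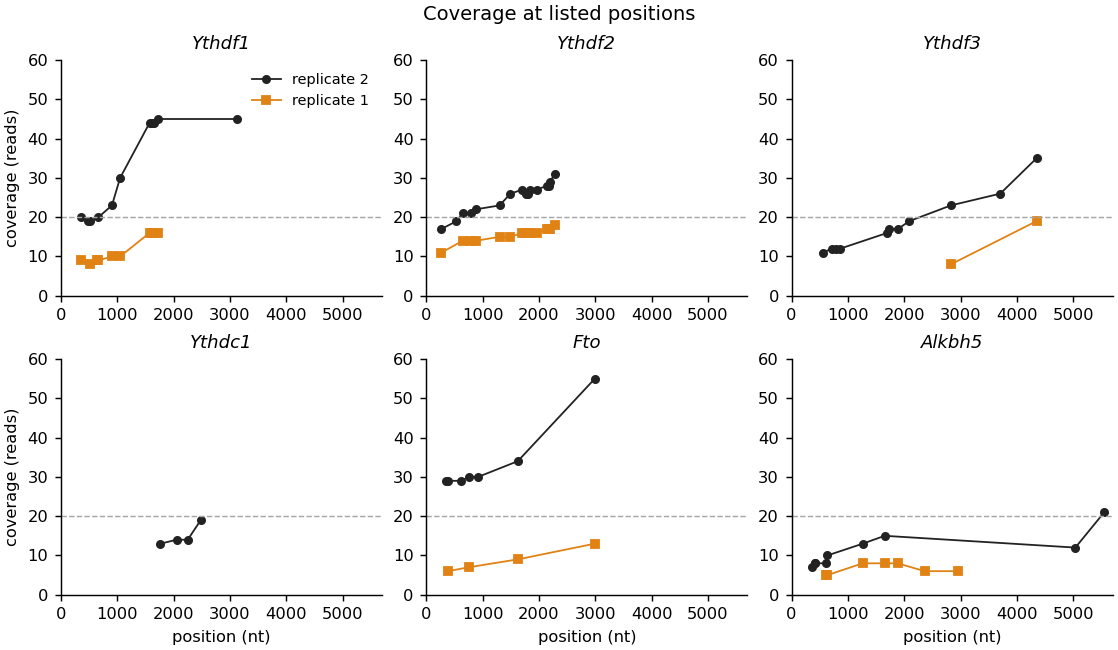
Coverage in reads (vertical axis) at each listed position (horizontal axis, nt from the start of the deepest transcript) for the 6 listed genes, with circles for replicate 2 and squares for replicate 1. The dashed line marks 20 reads; all replicate 1 points lie below it, and the highest point is Fto with 55 reads in replicate 2.

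The libraries did not differ in depth by the same factor for every member. Over transcripts with at least 4 shared positions, coverage in replicate 2 was a median of 2.18 times that in replicate 1 (interquartile range 1.72 to 2.75, 1958 transcripts). For Fto the ratio was 4.26 (3.78 to 4.83 over 4 positions), at percentile 97.1 of these transcripts. For Ythdf1 it was 2.75 over 9 positions, for Alkbh5 1.75 over 4 and for Ythdf2 1.65 over 15. Ratios of 1 library to another describe those libraries and were not tested.

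Ythdf1 encodes a cytoplasmic reader linked to translation of methylated mRNA (chromosome 2, 180546170 to 180562742; gene coordinates here are as deposited, and their build is not settled, as given with the processing). All its positions lay on transcript ENSMUST00000037299.14, with 10 positions in replicate 1, 11 in replicate 2 and 9 sites. High and low fractions lay close together along it. Near the start, the GGACA at position 360 was listed at 1 with 9 reads in replicate 1, and at 0.857 with 20 reads in replicate 2 (mean 0.929 ± 0.101, SD, n = 2). The AGACT at position 664 had 0.667 over 9 reads and 0.857 over 20 reads, a mean of 0.762 ± 0.135 (SD, n = 2). The latter value of replicate 2 ranked at percentile 97.2 of all 2937 AGACT sites, so this is the highest-ranked member site for its motif.

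Between these high positions and the next lay GGACA positions with little signal. Position 904 had 0.143 and 0.154 in replicates 1 and 2, and position 1049 had 0.333 and 0.1. They ranked at percentiles 9.92 and 5.85 of all GGACA sites in replicate 2. At position 510 the fraction was 0.143 over 8 reads and 0 over 19 reads. The last listed position, a GGACA at 3126, had 0.0938 over 45 reads and was listed in replicate 2 only.

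A cluster of 4 positions downstream was covered by nearly the same number of reads, 16 in replicate 1 and 44 or 45 in replicate 2. Its 4 positions are thus alike in coverage, but the number of reads behind each fraction is not given. The GGACA at position 1572 had 0.636 and 0.704 (mean 0.670 ± 0.0476, SD, n = 2). Only 38 nt on, the GGACT at position 1610 had 0.1 and 0.0606 (mean 0.0803 ± 0.0279, SD, n = 2). The GGACA at 1643 followed with 0.429 and 0.455, and the AGACT at 1719 with 0.333 and 0.357. These 4 fractions kept the same order in both libraries, and their differences between libraries, 0.0238 to 0.0673 in size, were smaller than the gaps between neighbouring fractions in that order within either library.

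Ythdf2 encodes the reader that recruits the CCR4-NOT deadenylase to methylated mRNA (chromosome 4, 131912223 to 131939614). It had the most sites of the members: 15 positions in replicate 1, and 20 positions with 14 sites in replicate 2, all sites on transcript ENSMUST00000152796.7. Along this transcript the GGACA positions fell into a largely high upstream stretch and a low downstream stretch. Upstream, from position 270 to 1494, 6 GGACA positions had a median fraction of 0.944 in replicate 1 (range 0.571 to 1) and 0.913 in replicate 2 (range 0.2 to 1). Downstream, from 1773 to 2172, 4 GGACA positions had a median of 0.106 in replicate 1 (0 to 0.125) and 0.103 in replicate 2 (0.0714 to 0.304). The stretches did not overlap in replicate 1 and overlapped in replicate 2 through position 648 alone. This split was made after the values had been seen.

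The single upstream positions were mostly close between libraries. Position 270 had a fraction of 1 in both, over 11 and 17 reads. Position 1302 had 1 and 0.955 (mean 0.977 ± 0.0322, SD, n = 2), and position 1494 had 1 and 0.875 (0.938 ± 0.0884). Both lay in the upper part of all GGACA sites of replicate 2, at percentiles 85.9 and 72.3. Position 879 had 0.889 and 0.95 (0.919 ± 0.0432), and position 801 had 0.692 and 0.765 (0.729 ± 0.0512). The exception was position 648, with 0.571 over 14 reads and 0.2 over 21 reads (0.386 ± 0.263, each SD, n = 2), where the libraries put the same position on opposite sides of 0.5.

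Downstream, 4 GGACA positions were low in both libraries. Position 1773 had 0 and 0.105, position 1844 had 0.1 and 0.304, position 1961 had 0.111 and 0.1, and position 2172 had 0.125 and 0.0714. In replicate 2 the last was the lowest-ranked member GGACA site, at percentile 3.86. Declines along the transcript also occurred elsewhere. Across its 9 GGACA sites Spearman's rho of fraction with position was -0.60, and among the 12 transcripts with at least 8 GGACA sites it ran from -0.90 to 0.64 with a median of -0.33, 4 of them, Ythdf2 included, at or below -0.60.

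The other motifs of Ythdf2 lay between these extremes. The GGACT at position 2198 had 0.562 and 0.611 (mean 0.587 ± 0.0344, SD, n = 2), at percentile 84.2 of GGACT sites, although the nearest GGACA before it, at 2172, was among the lowest. The GGACT at 2279 did not hold its value, with 0.75 over 18 reads and 0.3 over 31 reads, nor did the AGACT at 1701, with 0.0909 over 16 reads and 0.348 over 27. The GGACT at 1811 had 0.429 and 0.278, and the AGACT at 2136 had 0.182 and 0.333.

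A second Ythdf2 transcript, ENSMUST00000085181.4, was listed in replicate 2 with 4 positions of 5 reads each. Of these, 3 had the spacing and motifs of positions 2172, 2198 and 2279 of the deeper transcript, moved by 1796 nt. Their fractions were 0.333, 0.667 and 0.8, against 0.0714, 0.611 and 0.3 on the deeper transcript. Reads shared between such transcripts could have been assigned to either, and 5 reads allow no comparison.

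Ythdf3 encodes the remaining cytoplasmic reader, which acts together with the other two (chromosome 3, 16237376 to 16271201). It was listed at 2 positions in replicate 1 and 14 in replicate 2, with 3 sites on ENSMUST00000108345.8. The AGACT at position 2829 had 0.4 over 8 reads and 0.636 over 23 reads (mean 0.518 ± 0.167, SD, n = 2). The GGACC at position 4350, the deepest, had 0.143 over 19 reads and 0.167 over 35 reads (0.155 ± 0.0168, SD, n = 2). The AGACT at 3706 had 0.261 over 26 reads and was listed in replicate 2 only. Thus 1 site of Ythdf3 was close between the libraries and low, and another was higher with a spread of 0.236 between them.

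Positions below 20 reads completed the picture of Ythdf3 in replicate 2. From 559 to 1887 the main transcript had 11 to 17 reads, and its GGACA positions had 0.333 at 559, 0.7 at 715, 0.818 at 793, 0.8 at 1699 and 0.0909 at 1887. The transcript ENSMUST00000108346.4 was listed at 3 positions of 5 to 8 reads. Of these, 2 matched positions of the main transcript at an offset of 9 nt, with 0.667 against 0.636 and 0.25 against 0.167.

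**Figure D2:**
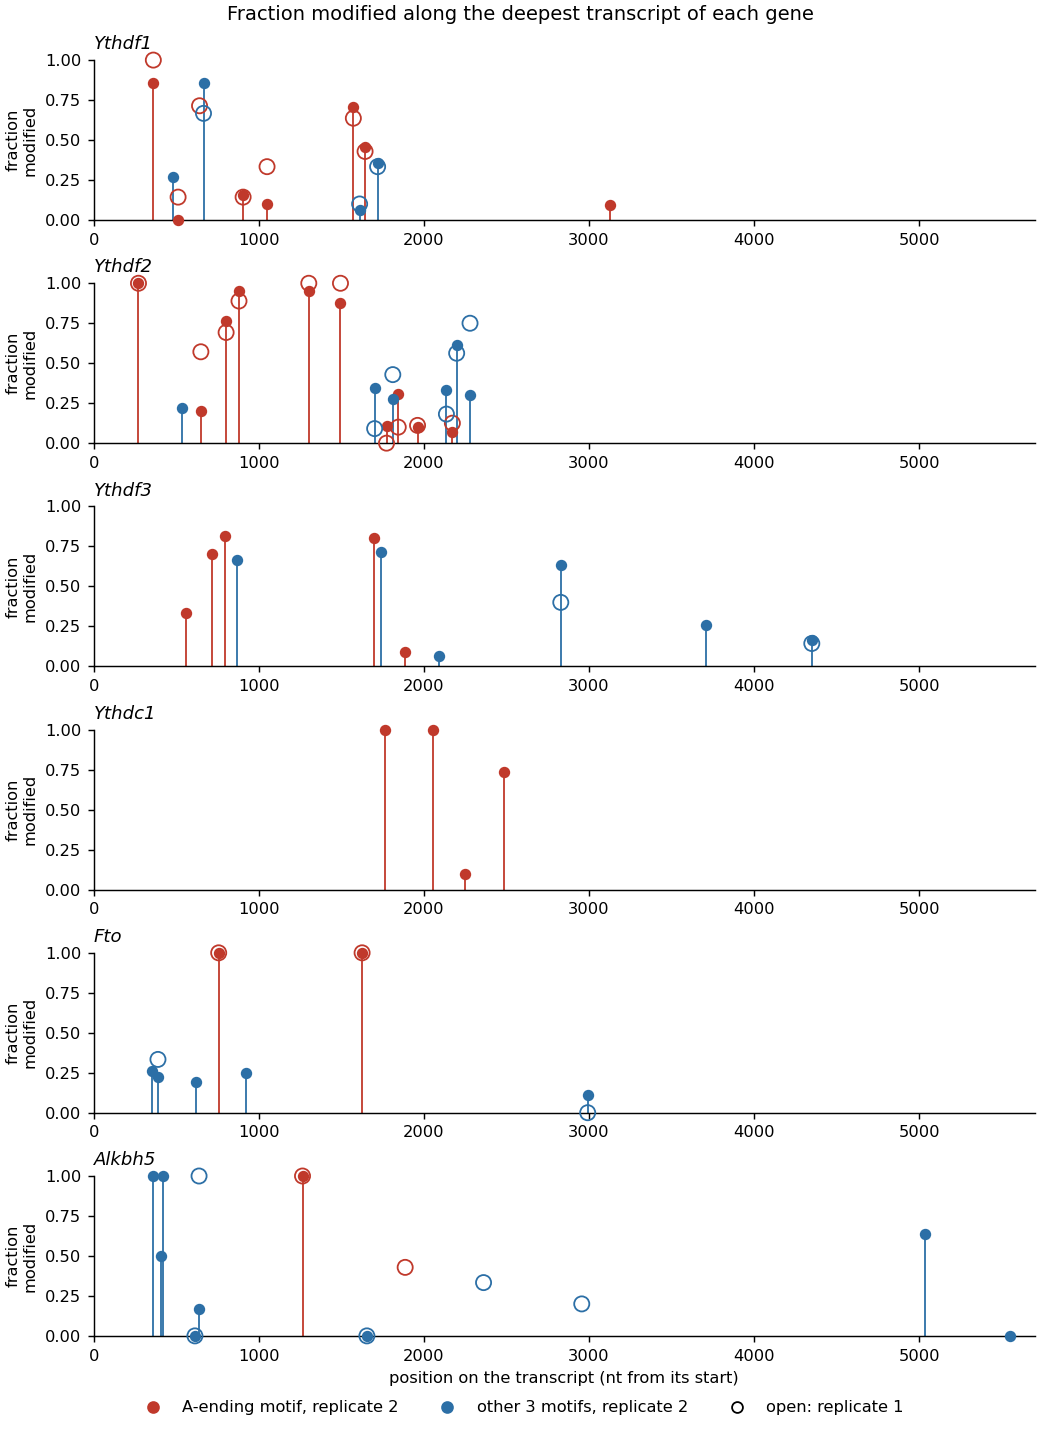
Fraction modified (vertical axis, 0 to 1) by position (horizontal axis, nt from the transcript start) on the deepest transcript of each listed gene. Filled points with stems are replicate 2, open points replicate 1, red the motif with A last and blue the other 3 motifs; Ythdf2 is largely high up to position 1494 and low in red from 1773 on, and Fto reaches 1 at both red positions.

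Since the 3 Ythdf genes are paralogues, their listed positions on the deepest transcripts were compared by spacing in replicate 2. The comparison was made with the values in view. Positions 1572, 1610 and 1643 of Ythdf1 and 1773, 1811 and 1844 of Ythdf2 were spaced alike, at an offset of 201 nt, with the same motif in all 3 pairs. Positions 1773, 1811 and 1961 of Ythdf2 matched 1699, 1737 and 1887 of Ythdf3 at an offset of 74 nt, with the same motif in 2 of 3 pairs. The offset between Ythdf1 and Ythdf3, 127 nt, is the difference of these offsets and held 2 pairs, 1 of them with the same motif. In that comparison 2 other offsets held as many pairs. Other offsets of these 3 comparisons held at most 2 pairs, and of 8 that did, 1 had the same motif in both pairs: 801 and 879 of Ythdf2 against 715 and 793 of Ythdf3. Whether equally spaced positions are the same place in related sequence was not tested, since no transcript sequence was at hand.

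At the first of these places the paralogues had unlike fractions on the same GGACA motif. The fraction was 0.704 over 44 reads in Ythdf1 and 0.8 over 16 reads in Ythdf3, but 0.105 over 26 reads in Ythdf2. In replicate 1 it was 0.636 in Ythdf1 and 0 in Ythdf2, over 16 reads each, so the gap was 0.636 there and 0.598 in replicate 2. The values of Ythdf1 and Ythdf2 did not overlap over the 2 libraries, and Ythdf3 was listed there in replicate 2 only.

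Of the next place, 38 nt on, Ythdf1 had 0.0606 and Ythdf2 0.278 at a GGACT, the reverse order, and Ythdf3 had 0.714 over 17 reads at an AGACT. At 71 nt Ythdf1 was again above Ythdf2, as at distance 0, with 0.455 and 0.304 in replicate 2 and 0.429 and 0.1 in replicate 1. At 188 nt Ythdf2 and Ythdf3 were both low, with 0.1 over 27 reads and 0.0909 over 17 reads. The pair 801 and 879 of Ythdf2 was high like its counterpart in Ythdf3, with 0.765 and 0.95 against 0.7 and 0.818. Spacing and motif were thus shared where the fraction was alike and also where it was not.

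**Figure D3:**
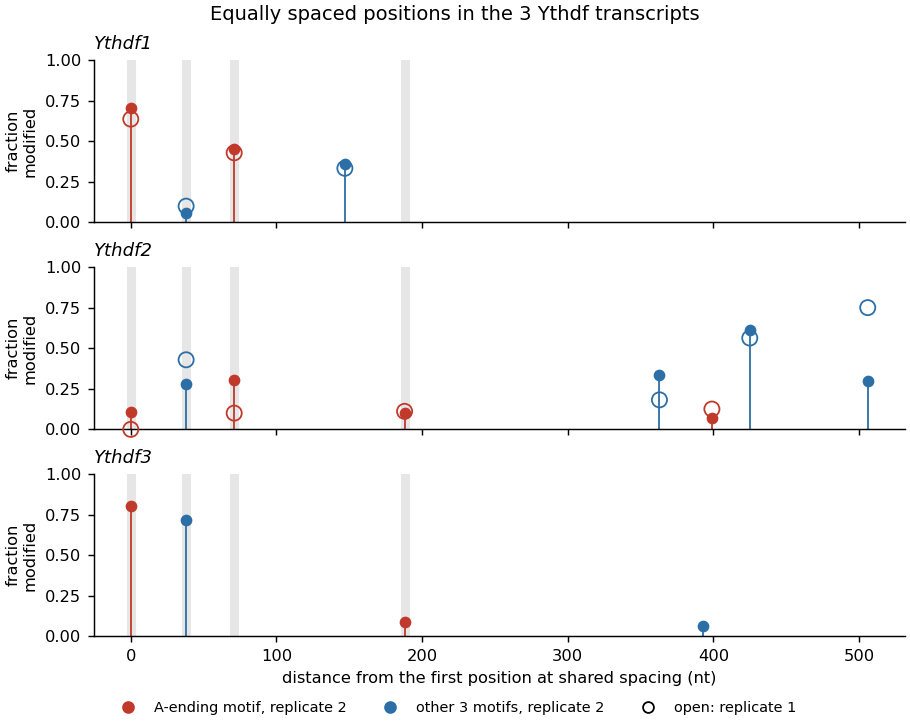
Fraction modified (vertical axis) against the distance in nt from position 1572 of Ythdf1, 1773 of Ythdf2 and 1699 of Ythdf3 (horizontal axis). Grey bands mark distances listed in at least 2 of the genes, filled points are replicate 2 and open points replicate 1; at distance 0 the fraction in replicate 2 is 0.704 in Ythdf1, 0.105 in Ythdf2 and 0.8 in Ythdf3.

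Ythdc1, the nuclear reader (chromosome 5, 86952080 to 86984518), was not listed in replicate 1 and had 4 positions, all GGACA, in replicate 2 on ENSMUST00000120498.7. None reached 20 reads. The fraction was 1 at position 1766 over 13 reads and at 2053 over 14 reads, 0.1 at 2249 over 14 reads and 0.733 at 2482 over 19 reads. Here too a low position lay between high ones, without a replicate to check it. Ythdc2, the reader with a helicase domain, was listed in neither library, so no statement on its methylation was possible.

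Fto, the first m6A demethylase to be described (chromosome 8, 92040153 to 92395067), was the deepest member in replicate 2, and its fractions divided by motif. It had 4 positions in replicate 1 and 7 in replicate 2 on ENSMUST00000069718.14, and all 7 were sites. Both GGACA positions, 756 and 1625, had a fraction of 1 in each library, over 7 and 30 reads and over 9 and 34 reads. They were the 2 member sites with a fraction of 1, a value that ranked at percentile 96.1 of GGACA sites.

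The 5 other sites of Fto were all low. The GGACC at position 2992, the deepest member site with 55 reads, had 0.111, and 0 over 13 reads in replicate 1 (mean 0.0556 ± 0.0786, SD, n = 2). The AGACT at 388 had 0.333 over 6 reads and 0.222 over 29 reads. The remaining 3 were listed in replicate 2 only, with 0.263 at the GGACC of position 354, 0.190 at the GGACC of 618 and 0.25 at the AGACT of 921. All 5 lay between percentiles 24.2 and 55.3 of sites of their own motif, so only the GGACA sites stood high for their motif.

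Alkbh5, the other eraser (chromosome 11, 60427207 to 60449338), was shallow, with 7 positions of 5 to 8 reads in replicate 1 and 9 positions of 7 to 21 reads in replicate 2 on ENSMUST00000044250.3. Its single site, the GGACT at position 5552, had a fraction of 0 over 21 reads and was listed in replicate 2 only. Among shared positions below 20 reads, the GGACA at 1264 had 1 in both libraries over 8 and 13 reads. The remaining positions of replicate 2 alone were the GGACC at 357, 408 and 421, with 1, 0.5 and 1 over 7 or 8 reads, and the GGACT at 5039, with 0.636 over 12 reads. The GGACC at 612 and the GGACT at 1654 had 0 in both, over 5 and 8 reads and over 8 and 15 reads.

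One position of Alkbh5 was opposite in the libraries: the GGACT at 637 had 1 over 5 reads and 0.167 over 10 reads. That difference of 0.833 was the largest of any shared member position. Positions 1886, 2361 and 2956, with 6 to 8 reads in replicate 1, were not listed in the deeper replicate 2, although position 1654 had 15 reads there. Together with position 640 of Ythdf1 they made up the 4 of 38 replicate 1 positions (10.5%) without a match in replicate 2.

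Across the members, 34 positions could be compared between libraries. The fraction was higher in replicate 2 at 15 of them, lower at 13 and equal at 6, with a median absolute difference of 0.0699 against 0.0923 at all 18756 shared positions. It exceeded 0.2 at 7 positions (20.6%), against 22.1% of all shared positions. With 10 or more reads in both libraries it did so at 5 of 23 member positions (21.7%), against 13.5% of all genes' positions, whose median coverage in that class was higher, 43 reads in replicate 2 against 27 for the members. With under 10 reads in replicate 1 it did so at 2 of 11 (18.2%), against 34.1%. Of these 11, 5 in Fto and Alkbh5 were equal at a fraction of 0 or 1, while 1316 of 7746 were equal over all genes. With under 20 reads in replicate 1 and at least 20 in replicate 2, where 28 of the 34 lay, the median was 0.0889 against 0.1 for all genes. Single member positions differed by up to 0.833, far more than these medians. Pearson's r was 0.843 and Spearman's rho 0.809 across the 34 positions, which share transcripts and reads and are not independent.

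**Figure D4:**
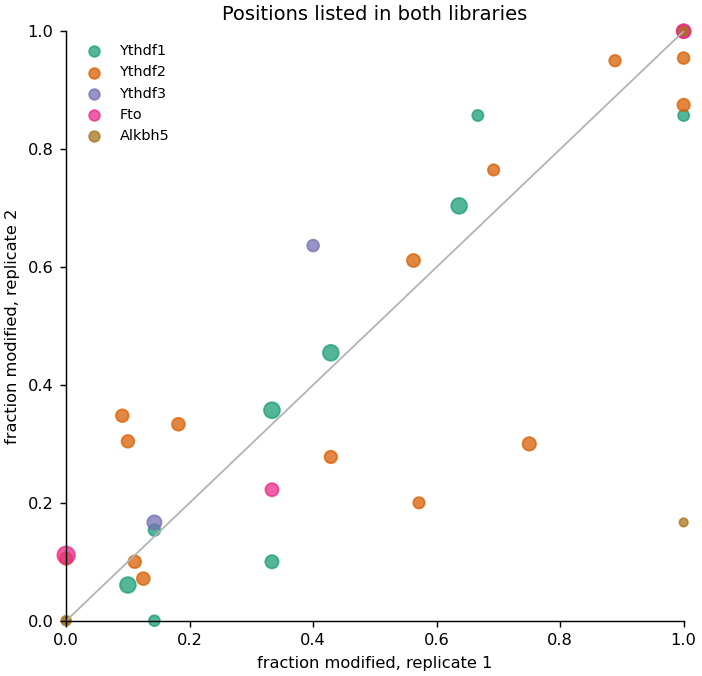
Fraction modified in replicate 1 (horizontal axis) against replicate 2 (vertical axis) at the 34 member positions listed in both, coloured by gene, with larger points for more reads in replicate 2 and a grey line of equal values. The point at the right edge near 0.167 is position 637 of Alkbh5.

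The members' sites were then set beside all 16212 sites of replicate 2. Their median fraction was 0.289 against 0.345, and 11 of 34 had a fraction of 0.5 or more (32.4%, 95% Wilson interval 19.1 to 49.2), against 37.5% of all sites. The interval holds the share of all sites. Without a coverage minimum the order of the medians was reversed, with 0.348 for the members and 0.333 for all listed positions of replicate 2. The motif GGACA made up 17 of 34 member sites (50%, interval 34.1 to 65.9), against 35.6% of all sites, a share within that interval. With each fraction set against the median of all sites of its motif, the members' median was 0.0151, and it was -0.0517 against the mean of the motif, so its sign depended on that choice.

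Within GGACA the members spread over nearly the whole range, from 0.0714 to 1, with a median of 0.455 against 0.667 for all 5773 GGACA sites. A fraction of 0.5 or more was seen at 8 of 17 (47.1%, interval 26.2 to 69.0) against 64.1% of all GGACA sites. The low ones came from Ythdf1 and Ythdf2, where 4 and 5 of the GGACA sites lay below 0.5, while both of Fto were at 1. Without a coverage minimum the 32 listed GGACA positions of the members had a median of 0.718, so the shallow positions were the higher ones on the whole. At the other 3 motifs 3 of 17 sites reached 0.5 (17.6%, interval 6.19 to 41.0), against 22.8% of all: position 664 of Ythdf1, 2198 of Ythdf2 and 2829 of Ythdf3.

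**Figure D5:**
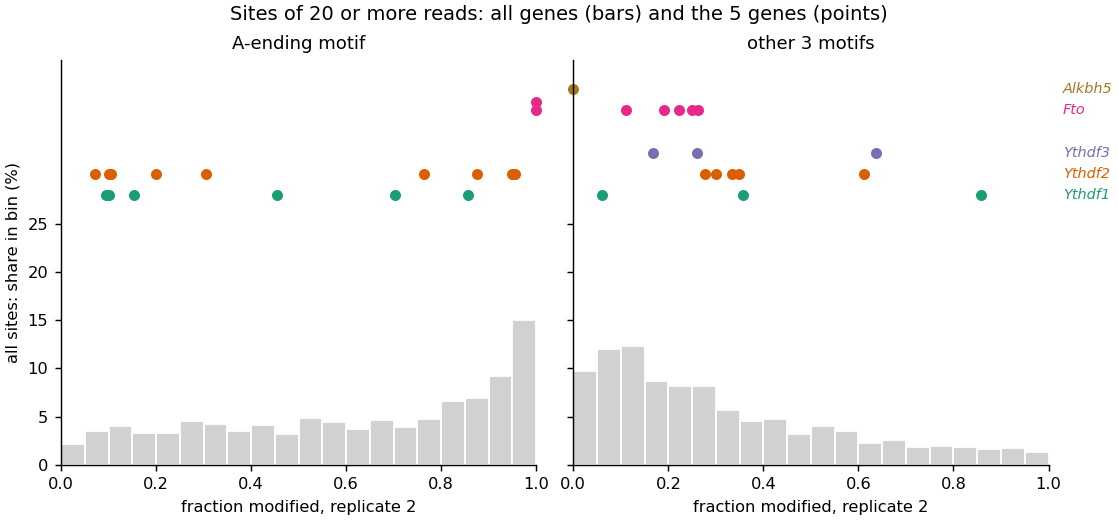
Grey bars give the share in % (vertical axis) of all replicate 2 sites per bin of fraction modified (horizontal axis), on the left for the motif with A last and on the right for the other 3 motifs. Coloured points above are the 34 sites of the members, 1 row per gene; on the left they run from 0.0714 to 1, with both Fto points at 1.

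A wide range within 1 transcript was common in these data. The GGACA sites of Ythdf2 spanned 0.883 and those of Ythdf1 0.763, against a median span of 0.771 over the 49 transcripts with at least 6 GGACA sites (interquartile range 0.600 to 0.883). Over all motifs, Fto spanned 0.889, at percentile 58.7 of 575 transcripts with at least 7 sites.

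Other genes of the m6A pathway gave a frame for these depths, in replicate 2. All 9 writer genes were listed and 5 had a site, 37 sites with a median fraction of 0.2, most of them in Rbm15b (22), Wtap (9) and Virma (4), which belong to the complex around METTL3. Of 8 other reader genes 7 had a site, 48 sites with a median of 0.379, led by Prrc2a (14), Hnrnpa2b1 (9) and Elavl1 (7). Of 9 partners of YTH proteins 5 had a site, 19 sites with a median of 0.375, led by Cpsf6 (7), Cnot1 (4), the scaffold of the deadenylase that YTHDF2 recruits, and Rida (4). In the AlkB family beyond the erasers, 6 of 7 genes were listed and none had a site, with at most 19 reads. Relative to the median of each motif, the sites of writers had a median of -0.0747, other readers 0.0415 and partners 0.00655, against 0.0151 for the members. These differences between lists were not tested.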

How the data were processed

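Plus and minus tables for each library were deposited by the authors, made from direct RNA reads (kit SQK-RNA002 per the labels). Each row holds a deposited fraction (modified score, 0 to 1, denominator not given) and a deposited coverage, a signal of whole reads of 5 or more, not scaled for depth. The aligner and modification caller are not given in the sources used here. The submitters' processing notes name mm10, yet the listed members' deposited gene starts differ from RefSeq's GRCm38.p6 by 54228 to 726786 bases, so these coordinates were not combined with it. The minus tables (11 and 35 positions) held no member.

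Rows were matched on versioned transcript and end position. A site had at least 20 reads. Percentiles are mid-ranks among sites of the same motif or among genes. Members, lists and tests were chosen with earlier results of these data known. Named are all members with their sites in full, or where over 6, the highest, lowest, deepest and shared ones, plus the 3 genes with most sites per list. Alternatives varied the coverage minimum, transcripts per gene, matching and centring. Python 3.11.15, pandas 2.3.3 and scipy 1.17.1 were used, and the functions were tested on simulated data. The result of a single further marker gene is not reported here.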

Additional observations from a re-analysis of the deposited data

How the results depend on the processing

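Depth limits these results. With a minimum of 10 reads the members had 54 sites in replicate 2, with none 65 and with 50 reads 1, the GGACC at position 2992 of Fto. That site alone made the number of members with a site 1, the median fraction 0.111 and the share of sites from 0.5 up 0%. With 20 reads in both libraries 0 member positions were shared. The median coverage was 13.5 without replicate 2. These 8 alternatives moved a summary, and the other 24 did not, by 1.5 times for counts and the 95% interval or the replicates' SD for other values. Relative to the motif, the members' median also turned negative with 50 reads (-0.107). For single sites shared by both libraries, leaving out a library cannot move a mean of 2 by 1 SD. The motif and fraction summaries could not be had from replicate 1, which has no member position of 20 reads. A reference limited to the members' depth, an alternative chosen after seeing the data, gave 0.0121 for the motif-centred median.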
